A study of Mus musculus with 44 samples.

Results

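Open chromatin was compared between a pair of mouse medulloblastoma sources, GTS1 and GTML3, by ATAC-seq, in which a transposase inserts sequencing adapters into DNA that is not wrapped in nucleosomes. The comparison takes 4 of the 44 samples of the series: the duplicate libraries titled GTS1 and the duplicate libraries of GTML3 treated with DMSO, the solvent control. They were chosen by title, with earlier results of these data known. They share a table of 88981 regions with 8 more libraries, the duplicates of GTS2, of preGTS1 under DMSO and under DOX (doxycycline), and of GTML3 under DOX. Every label gives the source as a medulloblastoma tumor of the GTS or the GTML kind, with tumor as the tissue. The treatment field holds a dash for GTS1 and GTS2 and DMSO for the GTML3 libraries compared here.

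GTML mice carry 2 transgenes, as published for the model: the Glt1 promoter (the gene is now named Slc1a2 and encodes the main glial glutamate transporter) drives the tetracycline transactivator tTA, which turns on human MYCN from a tetracycline response element, and doxycycline turns it off. The GTS model derives from GTML and ties MYCN expression to Sox9, and the labels list no alleles for either. MYCN is a MYC-family transcription factor and an oncogene of medulloblastoma. SOX9 is a transcription factor of neural stem cells and astroglia. MYC-driven human medulloblastomas of Group 3 are known for photoreceptor genes, whose regulators are OTX2 and CRX, while the cerebellar granule lineage is marked by ATOH1, ZIC1 and PAX6. Open chromatin at a promoter or a distal element marks where transcription factors can reach DNA, and it is not a measure of transcription.

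Each group is a single source, GTS1 or GTML3, and no label says whether its duplicates are separate cultures or animals. The duplicates differed by 1.85 times the counting noise of independent reads in both groups (chi-square per degree of freedom over regions with at least 10 reads). All 6 groups lay between 1.85 and 1.93. Whether the reads are independent or come in pairs was not tested, so a spread beyond counting noise is not shown. The 2 values of each group are therefore printed in place of a mean, and the p-values below compare these libraries, not the 2 models. Source, model, treatment with DMSO and depth cannot be told apart. The reads inside regions numbered 3996828 and 2084965 in GTS1 and 1748074 and 1670694 in GTML3, so 1 read was worth 0.2502 and 0.4796 CPM (read counts scaled to each library's total in regions) in GTS1 and 0.5721 and 0.5986 CPM in GTML3. Of all regions, 4.1% and 12.3% were at 0 in GTS1, against 16.8% and 17.7% in GTML3.

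Changes are differences of log2(CPM + 1), GTS1 minus GTML3, and a region is called higher or lower in GTS1 at an adjusted p under 0.05 by limma with Benjamini-Hochberg adjustment over all regions. Of the 88981 regions, 14816 (16.7%) were higher in GTS1 and 13423 (15.1%) were lower, 31.7% in all. Promoter regions, within 1 kb of a start named in the table, held 2776 higher (20.6%) and 3247 lower (24.2%) of 13445, 44.8% in all. Distal regions, farther than 1 kb, held 12040 higher (15.9%) and 10176 lower (13.5%) of 75536, 29.4% in all. Among the promoters called, 46.1% were higher, and TMM scaling in edgeR turned this to 60.5% (4089 higher and 2673 lower). TMM also moved the median change of all regions from 0.05 to 0.27, so a balance between gain and loss over all promoters is not set by these data. Without the second GTS1 library 6781 distal regions were lower instead of 10176.

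**Figure D1:**
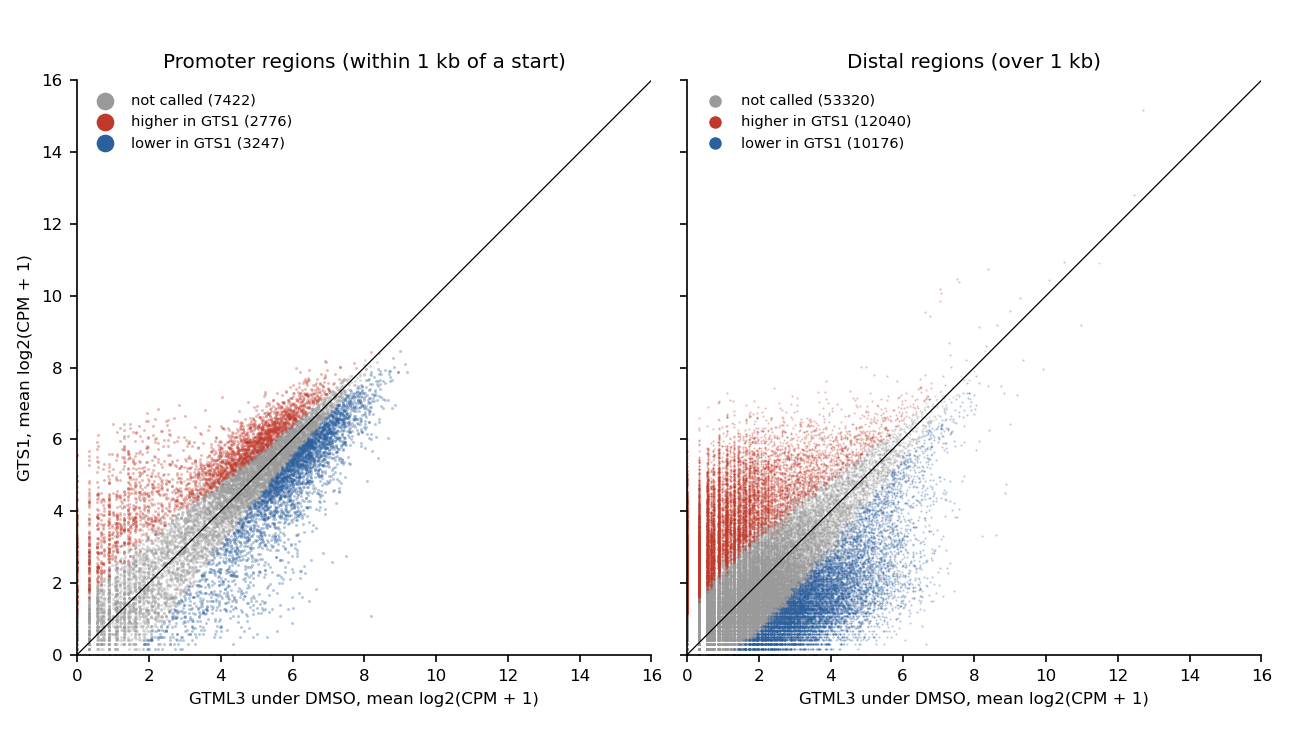
Mean log2(CPM + 1) of the GTML3 DMSO duplicates (x axis) against that of the GTS1 duplicates (y axis), for promoter regions on the left and distal regions on the right, with each point a region coloured by its call. The called promoters lie on both sides of the diagonal (2776 higher and 3247 lower), and a band of distal regions lies along each axis, near 0 in one source and well above 0 in the other.

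Among called regions, a smaller share of promoters than of distal regions changed at least 2-fold. Of the distal regions called, this held for 11803 of 12040 higher and 9862 of 10176 lower. At promoters it held for 1897 of 2776 and 1795 of 3247. The median promoter region averaged 27.0 CPM and the median distal region 2.3 CPM, and at few reads only large changes can be called. These shares therefore do not compare promoters and distal regions at equal levels. Among the 11803 distal regions, the median region read 11.3 and 11 CPM in the GTS1 libraries and 1.14 and 1.2 CPM in GTML3. Beyond 1 kb the share called did not grow or shrink with distance: it was 30.4% nearest to the start, then 28.8% and 29.6%, and 29.3% beyond 200 kb. Regions called higher had a median width of 585 bp and those called lower 724 bp, against 416 bp for regions not called. Their median levels were 7.61 and 9.29 CPM against 1.73 CPM, so width and level cannot be told apart.

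The Sox9 promoter, at chr11:112642601-112643930 in the table's coordinates, was more open in GTS1. It read 111 and 109.8 CPM in GTS1 and 35.5 and 48.5 CPM in GTML3, a log2 change of 1.39 (SE 0.178, limma adjusted p = 1.6e-05). GTS2 read 75.9 and 67.6 CPM there and preGTS1 under DMSO 88.6 and 93.3 CPM, so both GTML3 libraries were the lowest of these groups. All 3 regions listed within 200 kb of Sox9 were called higher. One of them, 31973 bp from the start, held 1.75 and 1.92 CPM against 0 and 0, and its call was lost when any one of the 4 libraries was left out (adjusted p 0.136 to 0.171).

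The other drivers differed in how their loci behaved. Mycn, the mouse gene whose human counterpart is the transgene, had 2 promoter regions. The nearer, 34 bp from the start, read 12.8 and 18.2 CPM in GTS1 and 12.6 and 13.2 CPM in GTML3, which overlap (log2 change 0.23, SE 0.291, adjusted p = 0.613). Its sign turned to -0.01 without the second GTS1 library. The farther, at 679 bp, was named after its values were seen and read 22.5 and 32.1 CPM against 10.3 and 16.2 CPM, which do not overlap (1.0, SE 0.344, adjusted p = 0.0331). This call was lost without either GTS1 library or without the first GTML3 library (adjusted p = 0.0518, 0.26 and 0.247), with quantile normalization (0.0634) and with changes centred within each chromosome (0.104). Within 200 kb, both promoter regions included, 5 of 19 Mycn regions were higher and 6 lower. The most changed, 37157 bp away at chr12:12911051-12911920, read 57.8 and 62.4 CPM in GTS1 against 1.72 and 2.39 CPM in GTML3 (4.33, SE 0.475, adjusted p = 3.44e-06). The Myc promoter read 45 and 44.1 CPM against 33.8 and 31.1 CPM and was not called (0.45, SE 0.202, adjusted p = 0.105). Mycl, the third member of the family, was higher at its promoter, with 69.6 and 86.3 CPM against 36 and 32.9 CPM (1.15, SE 0.213, adjusted p = 0.000471).

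Slc1a2, whose promoter drives the transactivator in GTML, held the highest reads of any driver locus, in a cluster of 4 regions 45250 to 56201 bp from the start the table uses (the 4 were picked after their values were seen). The region at 48133 bp, chr2:102497442-102499481, read 576 and 594 CPM in GTS1 and 2035 and 2005 CPM in GTML3, a fall by 1.79 on the log2 scale (SE 0.035, adjusted p = 1.86e-15). GTS2 read 672 and 632 CPM at this region and preGTS1 2302 and 2312 CPM, so the GTS1 values lie near GTS2 and below the other 2. Its neighbours went the opposite way. The region at 56201 bp read 1709 and 1740 CPM in GTS1 and 334 and 330.4 CPM in GTML3 (2.37, SE 0.0679, adjusted p = 2.85e-13). The region at 45250 bp read 1276 and 1373 CPM against 186 and 191 CPM (2.81, SE 0.0802, adjusted p = 2.85e-13). At 50224 bp the values were 309 and 344 CPM against 154 and 165 CPM, and GTS2 was higher than both with 1124 and 1225 CPM. In the RefSeq annotation of GRCm38.p6 the lower-coordinate end of the Slc1a2 gene lies 48.2 kb from its promoter window. The region at 48133 bp lies at about that distance, on the lower-coordinate side of the start the table uses. It may therefore lie at an annotated start of the gene, which was not tested across builds. Whether the tall regions hold reads from transgene copies of Slc1a2 sequence was not tested either. Of 23 regions within 200 kb of Slc1a2, 3 were higher and 7 lower. One of the lower ones, at 106510 bp, fell from 97.8 and 76.6 CPM in GTML3 to 7.26 and 2.4 CPM in GTS1 (-4.05, SE 0.358, adjusted p = 3.41e-07).

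**Figure D2:**
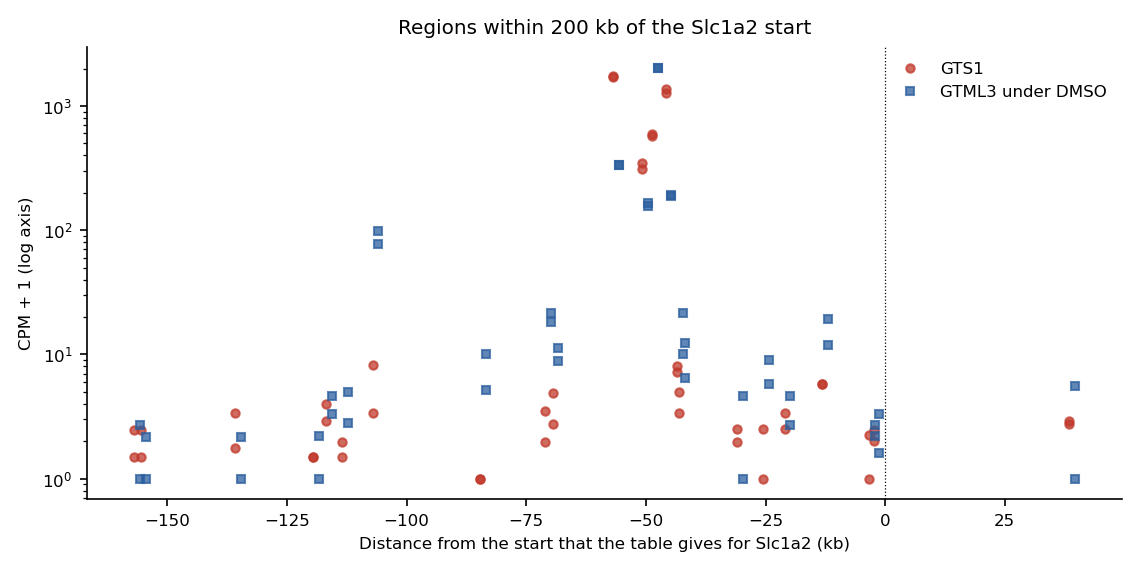
CPM + 1 on a log axis (y) of the regions within 200 kb of Slc1a2 against their distance in kb from the start the table gives (x), with 1 point for each GTS1 and GTML3 DMSO library, shifted slightly sideways so that points do not hide each other. In the tall cluster the GTML3 libraries peak at 48133 bp (2035 and 2005 CPM), while the GTS1 libraries peak on either side of it (1709 and 1740 CPM, 1276 and 1373 CPM).

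Mgmt, which encodes the enzyme that repairs alkylated guanine, had no region within 1 kb of its start. Within 200 kb 5 of its 14 regions were higher in GTS1 and 1 was lower. The highest of these, 173027 bp away, read 44.8 and 39.3 CPM in GTS1 against 1.72 and 1.8 CPM in GTML3 (3.96, SE 0.438, adjusted p = 3.69e-06). The region nearest to the start among those called, at 18784 bp, went down, with 13.3 and 20.1 CPM against 33.2 and 28.1 CPM (-0.86, SE 0.234, adjusted p = 0.00856).

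Gene lists were then read by their promoters (the promoter region nearest to each gene) and by the distal regions for which a listed gene is the nearest. Some genes are in several of the lists below. Id4 is in the astroglial and BMP lists, Hes1 in the astroglial and Notch lists, and Smad6 in the TGF-beta and BMP lists. Counts of such lists are therefore not independent. Over all 13144 genes with a promoter region 21.6% were higher and 25.1% were lower, with a median change of -0.01. Over all distal regions the shares are the 15.9% and 13.5% given above, with a median of 0.06. A list of 28 housekeeping genes serves as a yardstick: 10 of its 27 promoters were higher (6 without the first GTS1 library) and 4 were lower, with a median of 0.16. Polr2a, the largest subunit of RNA polymerase II, was the most changed of them, with 129.6 and 128 CPM in GTS1 against 47.5 and 33.5 CPM in GTML3 (1.67).

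Promoters of genes of the astroglial and neural stem cell state were more often higher than lower in GTS1. Of 24 promoters of the list 12 were higher and 4 lower, with a median of 0.87, and of 200 distal regions 48 were higher and 19 lower. These distal shares are 24.0% and 9.5%, against 15.9% and 13.5% over all distal regions. The list holds Nfib, Nfix and Nfia, with 11 of 22, 7 of 10 and 5 of 19 distal regions higher. Its distal counts thus overlap those of the nuclear factor I list below. Of the lower distal regions Nfia had 1 and Nfib and Nfix 0, so the distal lean of the list rests largely on these genes. A distal lean of its other genes is not claimed. The 4 lower promoters became 2 without the second GTS1 library and 1 without either GTML3 library. Id4, an inhibitor of basic helix-loop-helix factors that holds back neural differentiation, read 45 and 46 CPM in GTS1 and 1.14 and 1.2 CPM in GTML3 (4.42, SE 0.429, adjusted p = 9.17e-07). Hes1, the Notch-induced repressor that keeps stem cells undifferentiated, read 50 and 43.6 CPM against 2.29 and 1.2 CPM (4.15, SE 0.458, adjusted p = 3.61e-06). The promoters of Tnc, a matrix glycoprotein of glia, and of Nes, the intermediate filament of neural stem cells, were higher by 2.99 and 2.54. Sox2, Sox8, Nfia, Vim, Id1, Id2 and Id3 were also higher, by 0.7 to 2.31. Not all of the list followed: Ptprz1, a receptor phosphatase of radial glia, fell from 42.3 and 41.3 CPM in GTML3 to 9.26 and 8.15 CPM in GTS1 (-2.14, adjusted p = 1.19e-05), and Fabp7, Msi1 and Cst3 were lower too. Slc1a3, the other glial glutamate transporter, read 22 and 18.2 CPM against 33.8 and 40.1 CPM and was not called (adjusted p = 0.15).

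The nuclear factor I genes, transcription factors of gliogenesis, had 28 of 57 distal regions higher in GTS1 and 1 lower, with a median of 1.19. The single lower region, 99011 bp from Nfia, was not called without the second GTS1 library or without the first GTML3 library. Nfib had 11 higher of 22, Nfix 7 of 10, Nfia 5 of 19 and Nfic 5 of 6. The most open was 21368 bp from Nfix, at chr8:87317613-87318671, with 100.1 and 118 CPM in GTS1 and 1.72 and 1.2 CPM in GTML3 (5.49, SE 0.549, adjusted p = 1.31e-06). A region 58286 bp from Nfib, at chr4:82092959-82093836, read 59.5 and 67.1 CPM against 1.14 and 0.599 CPM (5.12, SE 0.401, adjusted p = 8.94e-08). In both regions each GTS1 library lay far above both GTML3 libraries. Nfib and Nfia lie on chromosome 4 and Nfix on chromosome 8, the chromosomes with the highest shares of higher regions (given below). With changes centred within each chromosome 24 regions stayed higher and 1 lower, with a median of 0.77.

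Notch signalling, in which a ligand on one cell binds a receptor on the next, proteases cut that receptor and its fragment joins RBPJ on DNA, had 8 of 18 promoters higher and 5 lower. Among its ligands, Jag1 read 64.1 and 72.4 CPM in GTS1 against 1.72 and 5.99 CPM in GTML3 (3.99, SE 0.382, adjusted p = 7.97e-07), and Jag2 and Dll4 were higher by 1.62 and 2.39. Dll1, the ligand of neural progenitors, was lower by -0.96. The receptor Notch1 read 21 and 19.2 CPM against 0 and 2.39 CPM (3.52). Of the targets, Hes1 (above) and the feedback inhibitor Nrarp, with 68.8 and 80.1 CPM against 4.0 and 4.19 CPM (3.88, adjusted p = 2.64e-08), were higher. Hey2 and Hey1, related repressors, were lower by -2.14 and -0.96. The promoter of Rbpj itself read 200.4 and 196 CPM against 250 and 279 CPM (-0.41). The distal regions of the list did not lean one way, with 24 higher and 27 lower of 151 (31 and 25 with TMM scaling).

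Genes of the immediate early response, which cells switch on within minutes of a stimulus, and their AP-1 and KLF factors were more open in GTS1, with 9 promoters higher and 1 lower of 17 and a median of 0.88. Their distal regions were 45 higher and 7 lower of 116 (4 lower without the second GTS1 library), with a median of 0.8. Klf2, a factor of quiescence and of the endothelium, read 123 and 124 CPM in GTS1 and 6.86 and 5.39 CPM in GTML3 (4.14, SE 0.216, adjusted p = 1.14e-09). Atf3, a stress-induced factor, read 149 and 139.6 CPM against 11.4 and 20.4 CPM (3.16, SE 0.261, adjusted p = 1.61e-07). The AP-1 subunits Junb and Fos were higher by 2.62 and 1.87, and 7 of the 10 distal regions of Fos were higher. The Jun promoter, open in all 4 libraries, read between 249 and 309 CPM in each (-0.11, adjusted p = 0.343), and Klf6 was lower by -0.68. Of the list's distal regions 38.8% were higher and 6.03% lower, against 15.9% and 13.5% over all distal regions. Klf4 (11 higher and 2 lower) and Jun (5 and 3) lie on chromosome 4. Ier2 (7 and 1) and Klf2 (3 and 0) lie on chromosome 8. These chromosomes have the highest shares of higher regions (given below). Over the alternative scalings, centring within each chromosome included, the distal count higher ran from 36 to 49 and the median from 0.5 to 1.52.

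TGF-beta and mesenchymal genes had 15 promoters higher and 4 lower of 31, and 51 distal regions higher and 23 lower of 235. The 15 became 9 without the second GTS1 library, and the 23 became 11 to 14 without any one of the 4 libraries. Ccn1, a secreted matrix protein and a target of YAP and TAZ, read 23.8 and 23.5 CPM in GTS1 and 0 and 0.599 CPM in GTML3 (4.28, SE 0.496, adjusted p = 5.93e-06). Wwtr1, which encodes TAZ, read 67.3 and 63.3 CPM against 8.01 and 5.99 CPM (3.06, SE 0.282, adjusted p = 5.38e-07). The inhibitory Smad6 of the BMP arm read 112 and 112 CPM against 11.4 and 10.2 CPM (3.26, adjusted p = 2.22e-07), and Runx1 and Twist1 were higher by 3.38 and 3.05. Skil, a repressor of SMAD proteins, Cdh2, the neural cadherin, and the co-receptor Tgfbr3 were lower, by -1.1, -1.09 and -0.94. BMP and Id genes had 8 promoters higher and 4 lower of 23 (2 lower without the first GTML3 library), where the receptors Bmpr1a and Acvr2a were among the lower, at -1.77 and -1.12.

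Photoreceptor and Group 3 genes were less open in GTS1. Of 20 promoters 8 were lower and 1 higher, with a median of -0.71, and of 134 distal regions 41 were lower and 10 higher (6 higher without the first GTML3 library), with a median of -0.65. Rbp3, the retinoid carrier between photoreceptors and pigment epithelium, read 1.25 and 0 CPM in GTS1 and 34.3 and 28.1 CPM in GTML3 (-4.42, SE 0.418, adjusted p = 7.12e-07). Impg2, a proteoglycan of the same matrix, read 3.25 and 0.959 CPM against 16 and 26.3 CPM (-2.9, adjusted p = 0.000555). The cone transducin subunit Gnb3 and Prdm1, a repressor in photoreceptor precursors, were each lower by -2.3. A distal region 69189 bp from Otx2, at chr14:49212619-49213822, read 2.5 and 3.36 CPM in GTS1 and 114 and 121 CPM in GTML3 (-4.92, SE 0.188, adjusted p = 1.8e-11), and it was among 6 lower and 1 higher of the 13 distal regions of Otx2. The Crx promoter was nearly closed in all 4 libraries, at 1.25 and 1.44 CPM against 1.72 and 4.19 CPM (adjusted p = 0.343). The promoter that went the other way was Isl2, a LIM-homeodomain factor, with 61 and 41.7 CPM in GTS1 against 2.29 and 1.2 CPM (4.26, adjusted p = 8.48e-06).

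Neuronal differentiation genes were mixed, with more lower than higher: 13 promoters lower and 5 higher of 36, and 81 distal regions lower and 58 higher of 423. Syt1, the calcium sensor of synaptic vesicles, read 27.8 and 17.3 CPM in GTS1 and 149.9 and 160.4 CPM in GTML3 (-2.77, adjusted p = 4.81e-09). Stmn3, a tubulin-binding protein of neurons, read 1.5 and 0 CPM against 12.6 and 18 CPM (-3.34, SE 0.497, adjusted p = 6.67e-05), and Elavl4, Dpysl3, Snap25 and Map2 were lower by -3.06 to -1.75. Robo3, the receptor that lets axons cross the midline, read 1.25 and 1.44 CPM against 18.3 and 27.5 CPM (-3.32, SE 0.359, adjusted p = 2.91e-06). The 5 higher promoters were the factors Neurog1 (34.8 and 42.2 CPM against 0 and 1.8 CPM, 4.56, adjusted p = 9.94e-05), Ebf2 and Myt1l and the neurofilament genes Nefl and Nefm. Axon guidance genes had 6 promoters higher and 11 lower of 31, which TMM scaling turned to 12 higher and 10 lower.

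**Figure D3:**
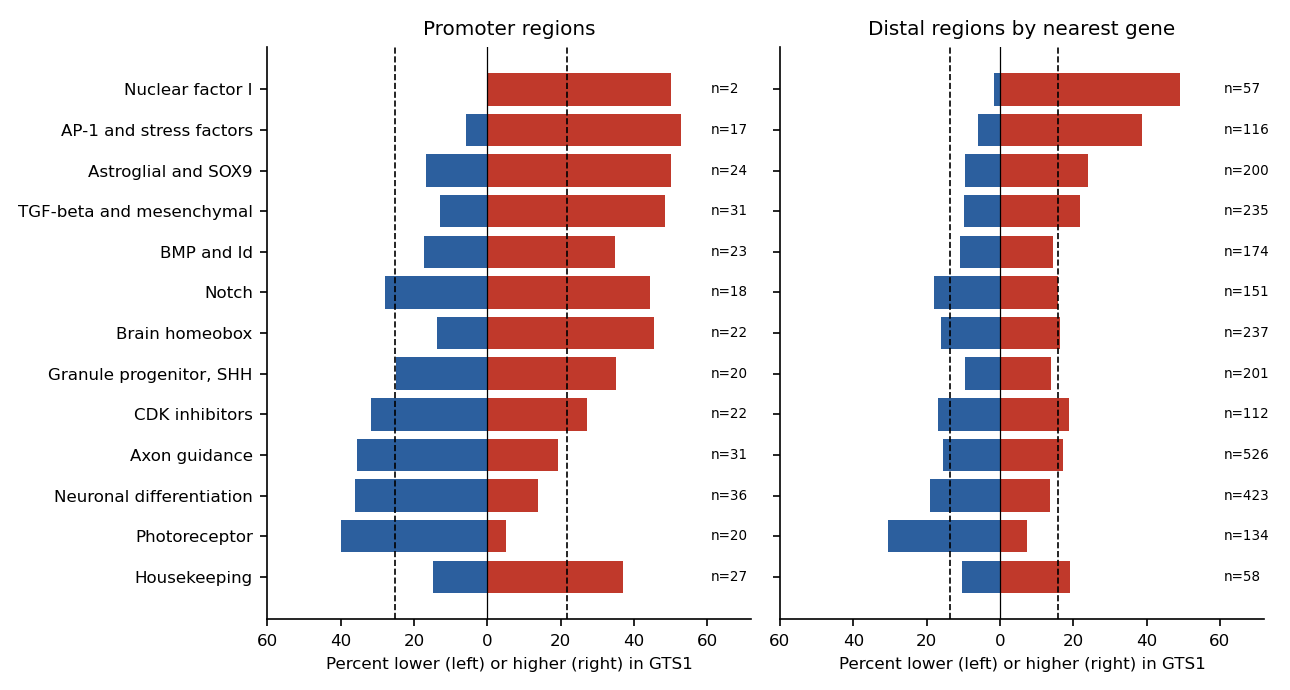
Share of each gene list shown that was called higher (to the right) and lower (to the left) in GTS1, for promoters in one panel and distal regions in the other, with dashed lines at the shares over all genes' promoters (21.6% and 25.1%) and over all distal regions (15.9% and 13.5%). Of the lists shown, nuclear factor I and AP-1 reach furthest past the dashed lines on the higher side of the distal panel and photoreceptor genes on the lower side.

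The granule lineage and SHH list did not move as a block, with 7 promoters higher and 5 lower of 20 and a median of 0.04. Atoh1, the factor that founds the granule lineage, read 28.8 and 26.9 CPM in GTS1 and 1.72 and 4.79 CPM in GTML3 (2.86, SE 0.452, adjusted p = 0.000116). Gli3, the repressor among the GLI factors, read 62.3 and 60 CPM against 4.58 and 1.2 CPM (4.15, adjusted p = 9.36e-08), and Zic1 read 15.8 and 10.6 CPM against 0 and 0 CPM. Gli2, the activator, was lower with 87.3 and 98.8 CPM against 154 and 168 CPM (-0.78), as were Pax6, Neurod1, Zic5 and the SHH co-receptor Boc. Distal regions of the list were 28 higher (17 and 16 without the first and the second GTS1 library) and 19 lower of 201, and edgeR scaled by library size gave 26 and 27.

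Regional homeobox genes had 10 promoters higher and 3 lower of 22. Irx3 read 73.1 and 65.2 CPM in GTS1 and 4.58 and 5.39 CPM in GTML3 (3.55, adjusted p = 1.34e-06), and Gbx2 and Lhx2 were higher by 4.07 and 3.02. Their distal regions were balanced, at 39 higher and 38 lower of 237 (29 and 40 with changes centred within each chromosome). Of 9 promoters of other Sox genes 5 were higher (3 without the first GTS1 library or without the second GTML3 library) and 1, Sox12, was lower. Sox1, a factor of early neural progenitors, was the largest of these, with 70.1 and 81.5 CPM against 1.14 and 1.8 CPM (4.97, SE 0.371, adjusted p = 5.08e-08). Of 9 Hox promoters 3 were higher and 1 lower, led by Hoxa5 with 19.5 and 12 CPM against 0 and 0 CPM.

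Inhibitors of the cell cycle split, with 6 promoters higher and 7 lower of 22 (9 and 5 with TMM scaling). Cdkn2a, the locus of INK4A and ARF, read 62.3 and 56.1 CPM in GTS1 and 3.43 and 3.59 CPM in GTML3 (3.74, SE 0.592, adjusted p = 0.000118). Gas1, a growth arrest protein and SHH co-receptor, read 107 and 82.5 CPM against 8.01 and 1.2 CPM (4.42, adjusted p = 9.77e-07). Trp53 and Cdkn1a were higher by 2.38 and 1.29, while Foxo3, Sesn1 and Cdkn1b were lower by -1.25, -1.11 and -0.81. S phase genes had 9 promoters higher and 6 lower of 41 and G2/M genes 10 and 6 of 34, with medians of 0.09 and 0.18, and edgeR scaled by library size gave 10 higher and 11 lower S phase promoters. These counts moved with single libraries, to 5 higher S phase promoters without the first GTML3 library and 6 higher G2/M promoters without the first GTS1 library or either GTML3 library. Of 122 distal regions of G2/M genes 30 were higher and 5 lower, with 14 higher without the first GTS1 library, 19 higher without the first GTML3 library and 8 lower with quantile normalization. Of 71 distal regions of S phase genes 13 were higher and 6 lower. The 13 became 8 without either GTS1 library or without the first GTML3 library, and the 6 became 2 without the first GTS1 or the first GTML3 library, 4 without the second GTS1 library and 10 with edgeR scaled by library size. Ribosome biogenesis and MYC target genes had 7 higher (4 without the first GTS1 or the first GTML3 library) and 4 lower of 31 (2 without any one library other than the first GTML3 library). DNA repair and drug resistance genes had 5 higher and 6 lower of 20, and 6 and 5 with TMM scaling. Their distal regions were 18 higher and 4 lower of 75, with 2 lower without the first GTML3 library.

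The interferon list of innate immunity had 4 higher and 2 lower of 22, and leaving out any one of the 4 libraries took the 4 to 1 or 2 and the 2 to between 0 and 2, while quantile normalization gave 2 higher and 4 lower. Bst2, the interferon-induced tetherin, was the largest, with 46.5 and 48.4 CPM in GTS1 and 2.86 and 0 CPM in GTML3 (4.62, adjusted p = 7.78e-06). Antigen presentation genes had 3 higher (1 without the first GTS1 or the first GTML3 library) and 1 lower of 10, where the peptide transporter Tap1 read 62 and 54.7 CPM against 12 and 4.79 CPM (2.77, adjusted p = 3.97e-05). The NF-kB list was split, at 4 and 4 of 12 (2 higher without the first GTML3 library, 7 with TMM scaling), with Rela higher by 1.49 and Nfkb1 and Rel lower by -1.79 and -1.03. The tuft and simple epithelium list had 3 higher and 4 lower of 22 (2 lower without the second GTS1 library), and 4 and 3 with TMM scaling.

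Promoters of markers of other cell types were few, since most have no listed promoter region. The mural and fibroblast list had 4 of 7 higher and 0 lower, with summed levels of 56 and 56.6 CPM in GTS1 and 6.86 and 11.4 CPM in GTML3, led by Tbx18 with 19.3 and 25.4 CPM against 0 and 0.599 CPM (4.19). It moves with the mesenchymal list, with which it shares genes such as Col3a1, one of the 4 higher promoters. Its part in that result was not tested. The oligodendrocyte list had 3 of 6 higher and 0 lower (summed 67.3 and 60 CPM against 19.4 and 19.8 CPM), and moves with the glial list, where its part was not tested. Microglial promoters, at 26.8 and 29.7 CPM summed in GTS1 and 46.3 and 52.1 CPM in GTML3, had 0 higher and 2 lower of 3. The T and NK cell list had 0 called of 1, at 0.25 and 0.959 CPM against 0 and 2.39 CPM. The endothelial list had 1 higher of 4 (35.3 and 42.2 CPM against 22.9 and 23.3 CPM), the ependymal list 1 of 3 (38 and 37.4 CPM against 27.5 and 18 CPM), the erythroid list 1 higher and 1 lower of 2, and the muscle list 1 higher and 1 lower of 3. In a bulk library more cells of a type and more open chromatin per cell cannot be told apart. Among defining genes of the tumor types, Gfap, Aqp4, Otx2, Nrl, Zic2 and Barhl1 had no listed promoter region, and Sox2, Pax6, Atoh1 and Zic1 are given above.

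**Figure D4:**
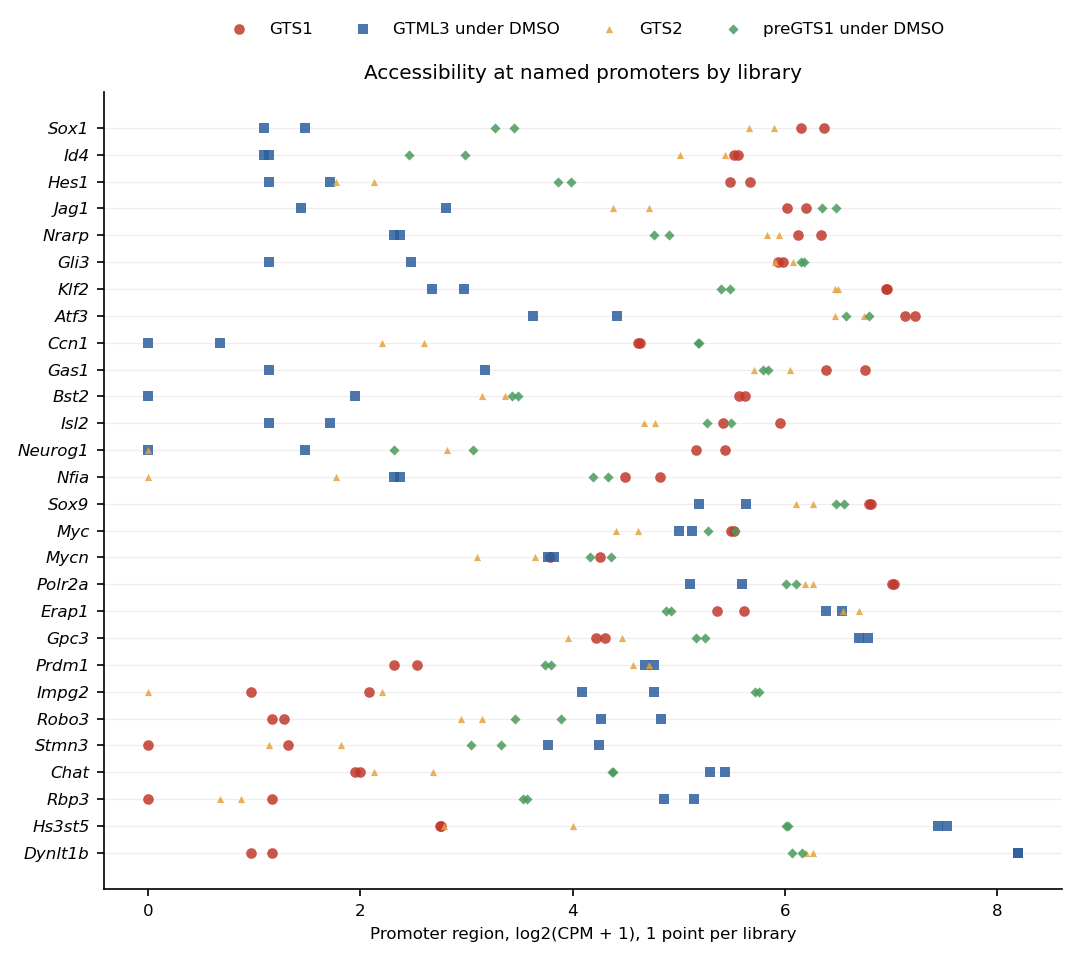
Level as log2(CPM + 1) (x axis) of promoters of named genes (rows) in the GTS1, GTML3 DMSO, GTS2 and preGTS1 DMSO libraries, 1 point for each library. The GTS1 points lie above the GTML3 points for promoters such as Id4 (45 and 46 CPM against 1.14 and 1.2 CPM) and below them for Rbp3 (1.25 and 0 CPM against 34.3 and 28.1 CPM).

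Promoter sequence was set beside these values with RefSeq windows of GRCm38.p6, each the 250 bases before a gene's start, printed 5′ to 3′ on the gene's strand. The table's coordinates are on another build, so gene symbols were matched, for 10285 of 13144 genes, and the RefSeq start may differ from the table's. A pair of promoters closed in GTML3 (Id4 and Sox1) and a pair closed in GTS1 (Rbp3 and Robo3) are shown, with the letters of any motif searched in capitals. The windows lie at chr13:48260866-48261115 (plus strand), chr8:12395269-12395518 (plus strand), chr14:33953753-33954002 (plus strand) and chr9:37433176-37433425 (minus strand).
Id4: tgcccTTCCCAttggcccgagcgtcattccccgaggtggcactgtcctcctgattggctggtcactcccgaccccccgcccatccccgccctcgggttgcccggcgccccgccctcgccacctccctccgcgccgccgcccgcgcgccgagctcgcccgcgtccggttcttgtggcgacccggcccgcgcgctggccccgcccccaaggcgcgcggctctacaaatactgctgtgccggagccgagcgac
Sox1: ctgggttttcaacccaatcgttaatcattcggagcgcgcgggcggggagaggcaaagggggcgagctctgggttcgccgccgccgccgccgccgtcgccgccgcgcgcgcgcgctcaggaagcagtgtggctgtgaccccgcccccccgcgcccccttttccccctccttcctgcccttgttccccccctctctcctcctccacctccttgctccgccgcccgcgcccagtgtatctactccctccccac
Rbp3: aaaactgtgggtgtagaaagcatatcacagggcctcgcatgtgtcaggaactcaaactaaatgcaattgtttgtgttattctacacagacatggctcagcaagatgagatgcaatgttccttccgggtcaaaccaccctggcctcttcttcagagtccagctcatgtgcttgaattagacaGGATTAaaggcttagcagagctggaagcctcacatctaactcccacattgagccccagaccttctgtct
Robo3: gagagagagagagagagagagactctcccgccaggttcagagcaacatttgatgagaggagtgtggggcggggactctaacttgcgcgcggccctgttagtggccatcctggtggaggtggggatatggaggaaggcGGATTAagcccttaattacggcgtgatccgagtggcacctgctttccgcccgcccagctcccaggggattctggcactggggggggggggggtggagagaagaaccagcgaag
The Id4 window holds the RBPJ letters TGGGAA, read on either strand, starting 245 bases before the start. The Rbp3 and Robo3 windows hold the OTX and CRX letters TAATCC, read on either strand, starting 69 and 113 bases before the start. The Sox1 window holds none of the motifs searched. The windows shown were picked from a larger set that was read. Of other promoters lower in GTS1 in that set, the Impg2 window holds the AP-1 letters TGANTCA and no TAATCC. The Stmn3 window holds none of the motifs. A match is a description of letters, not of a bound site.

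The same letters were counted in all windows, on both strands. TAATCC was in 4.5% of the 1757 windows of genes whose promoter was at least 2-fold higher in GTS1, in 7.12% of the 1713 windows of genes at least 2-fold lower, in 5.14% of the 12630 windows of all genes with a listed promoter and in 6.25% of all 32851 windows. The AP-1 letters TGANTCA were in 5.24%, 3.68%, 4.07% and 6.75% of the same sets. The E-box of MYC, CACGTG, was in 8.88%, 6.71%, 8.25% and 6.02%. The proneural E-box CAGCTG was in 13.1%, 13.8%, 12.3% and 13.0%, the RBPJ letters in 20.5%, 22.4%, 20.3% and 21.6%, and the CRE letters TGACGTCA in 1.88%, 1.98%, 2.65% and 1.55%. The longer nuclear factor I palindrome was in 1 and the REST core in 2 of the 12630 windows. None of these motifs contains another. The median GC content was 60.4% in the higher set, 58.8% in the lower set and 60.4% over genes with a listed promoter, and the ratio of observed to expected CpG was 0.72, 0.642 and 0.722, so the lower promoters were slightly poorer in CpG. These shares are descriptions, without a test.

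The largest promoter differences were nearly on or off. Acoxl, an acyl-CoA oxidase-like gene, read 79.3 and 71.9 CPM in GTS1 and 0 and 0 CPM in GTML3, at least 87.5-fold higher against a floor of 3 reads over the GTML3 pair (adjusted p = 3.89e-07). Aldh3b1, an aldehyde dehydrogenase, read 36 and 59.5 CPM against 0 and 0 CPM, at least 50.2-fold higher. Lrrc7, Pde1c, Dmrta2, Mir3071, Stxbp6 and Rab40b followed with changes of 5.2 to 5.54. Dmrta2, a forebrain patterning factor, and Rab40b were also open in GTS2 (71.7 and 55.5 CPM, and 68.3 and 68.2 CPM), while Acoxl and Mir3071 stayed at or under 2.41 CPM there. In the other direction, Zfp951 read 0 and 0 CPM in GTS1 against 41.2 and 41.9 CPM in GTML3, at least 84.2-fold lower against the same floor over the GTS1 pair (adjusted p = 4.27e-09). Hs3st5, a heparan sulfate sulfotransferase, read 5.75 and 5.76 CPM against 173 and 184 CPM (-4.73, adjusted p = 2.91e-09), and Rnls, Prrxl1, Cfap47, Mir6420 and Pabpc5 were lower by -5.09 to -4.81. Dynlt1b had the largest value of all, with 1.25 and 0.959 CPM against 293 and 293 CPM (-7.13), but it has near-identical copies next to it, so reads could be split among them and the value is uncertain.

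Distal regions gave differences of similar size. A region 70799 bp from Atl2, at chr17:80224039-80225290, read 162 and 149 CPM in GTS1 and 1.14 and 1.2 CPM in GTML3 (6.17, SE 0.48, adjusted p = 8.15e-08), and GTS2 and preGTS1 under DMSO read 3.25 CPM or less. Regions near Commd10, Amer3, Adamtsl1, Ctif, Lpcat2, Gjb5 and Nkd1 were higher by 5.89 to 6.33. A region 19173 bp from Scml4, at chr10:42598945-42600036, read 0 and 0.48 CPM against 97.8 and 102 CPM (-6.37, SE 0.418, adjusted p = 1.27e-08). A region 20273 bp from Trappc6b, at chr12:60140727-60143646, read 8.51 and 9.59 CPM against 382 and 391 CPM (-5.27, SE 0.17, adjusted p = 1.41e-12). Regions near Fam110b, Irx1, Epha5, Kit, Rps6ka3 and Hs3st2 were lower by -5.77 to -5.23.

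Some loci held many changed distal regions, against a median of 3 distal regions for each of 15738 genes. The loci were ranked by the number of calls, which favours genes with many regions. Over all distal regions 15.9% were higher and 13.5% lower. In 37 genes at least 10 distal regions were higher, and in 36 at least 10 were lower. The uncharacterised gene E130114P18Rik had 28 higher and 3 lower of 49, with the largest region at 56.8 and 68.1 CPM in GTS1 against 0 and 0.599 CPM in GTML3. That region, at chr4:97380852-97381921, lies near the Nfia promoter at chr4:97248091-97248890. Nfia was the other flanking gene of 0 of the 49, and whether these regions belong to the Nfia locus was not tested. Maf, a basic leucine zipper factor, had 17 higher and 1 lower of 23 with a median change of 2.49, and its promoter was higher by 4.55 (adjusted p = 2.71e-06). Edn2, which encodes endothelin 2, had 15 higher and 0 lower of 31, led by a region of 97.8 and 109 CPM against 1.72 and 3.59 CPM. Ptprd had 18 of 67, Rybp 16 of 55 and Bcor, the BCL6 corepressor, 15 of 52 higher, with 2 to 5 lower in each, and the Rybp promoter went the other way, lower by -0.72 (adjusted p = 0.00058). E130114P18Rik, Edn2 and Ptprd lie on chromosome 4 and Maf on chromosome 8, the chromosomes with the highest median changes (0.39 and 0.64). On the lower side, Mir218-2, a microRNA gene inside Slit3, had 19 lower and 5 higher of 37, led by a region at 1.5 and 0.48 CPM against 60.1 and 59.3 CPM (-4.98, adjusted p = 3.3e-08). Dclk1, a doublecortin-like kinase of neurons and tuft cells, had 16 lower and 2 higher of 28, and its promoter was lower by -2.33 (adjusted p = 0.00491). Celf4, a neuronal RNA-binding protein, had 17 lower and 6 higher of 70 and a promoter lower by -3.5. Chd6, Sash1 and 2810032G03Rik had 15 or 16 lower and 1 or 2 higher, of 43, 35 and 49.

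The changes were not spread evenly over chromosomes. Chromosome 8 had 30.6% of its regions higher and 5.8% lower, with a median change of 0.64, and took 7.42% and 7.37% of GTS1 reads against 4.08% and 4.07% of GTML3 reads. GTS2 gave 4.84% and 4.83% of its reads to chromosome 8 and preGTS1 under DMSO 5.3% and 5.3%, so GTS1 was the highest of these groups. Chromosome 4 followed, with 23.7% higher, 9.64% lower and a median of 0.39. On the other side were chromosome 16 with a median of -0.34, chromosome 3 with -0.27 and the X chromosome with -0.51, where 8.49% of regions were higher and 30.1% lower. The X chromosome took 1.91% and 1.88% of GTS1 reads and 3.68% and 3.62% of GTML3 reads, against 2.38% and 2.39% in GTS2 and 2.28% and 2.29% in preGTS1. All 6 regions of the Y chromosome were lower: the GTS1 libraries held 1 and 2 reads there and the GTML3 libraries 170 and 169. GTS2 held 0 and 0 reads there, preGTS1 under DMSO 12 and 15, and GTML3 under DOX 96 and 79, so few or no Y reads were not particular to GTS1. Ddx3y, Uty and Eif2s3y, Y-linked genes expressed in most male cells, read 0 and 0 CPM at their promoters in GTS1. In GTML3 these promoters read 10.9 and 18.6 CPM, 13.7 and 13.8 CPM, and 15.4 and 16.8 CPM. Regions at Xist, the RNA that silences an X chromosome, were not called (adjusted p = 0.281 and 0.0529). DNA copy number and the sex of the animals were not measured, and their part in these shares was not tested. With changes centred within each chromosome 13643 regions were higher and 13036 lower over the genome, against 14816 and 13423 without.

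**Figure D5:**
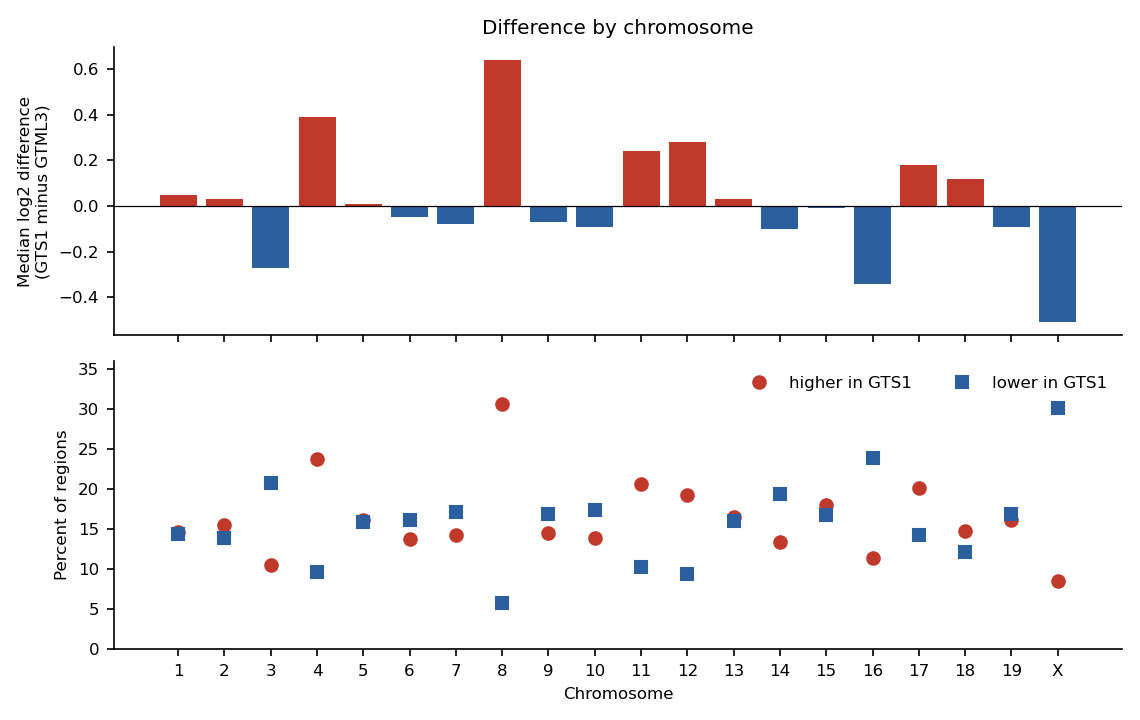
Median log2 change of the regions of each chromosome, GTS1 minus GTML3 DMSO, in the upper panel, and the percent of its regions called higher (circles) and lower (squares) in the lower panel, for chromosomes 1 to 19 and X. Chromosomes 8 and 4 have the highest medians (0.64 and 0.39) and X the lowest (-0.51), and the lower panel shows 30.6% of chromosome 8 higher and 30.1% of X lower.

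A single region also took an uneven share of reads. The region assigned to Rn45s, the ribosomal RNA precursor, read 35622 and 38755 CPM in GTS1 and 6633 and 6702 CPM in GTML3 (2.48). The 10 highest regions together held 5.29% and 5.86% of GTS1 reads and 2.1% and 2.1% of GTML3 reads. Leaving them out gave 15246 regions higher and 12864 lower.

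The other libraries of the table were read at the changed regions, which were chosen on the contrast itself, so levels alone are given, without a test. At the 11803 distal regions at least 2-fold higher in GTS1 (medians of 11.3 and 11 CPM), the median was 1.69 and 1.21 CPM in GTS2, 2.07 and 2.06 CPM in preGTS1 under DMSO and 1.03 and 1.21 CPM in GTML3 under DOX. The median of GTS2, the other source labelled GTS, was thus near that of GTML3. At the 9862 distal regions at least 2-fold lower, the GTML3 DMSO libraries had 10.9 and 11.4 CPM and GTS1 1.5 and 1.44 CPM. There GTS2 had 0.844 and 1.21 CPM, preGTS1 under DMSO 9.61 and 9.65 CPM and GTML3 under DOX 9.29 and 9.67 CPM, so the lower set was low in both GTS sources and open in the other 2. Promoters differed less: at the 1897 higher ones GTS2 had medians of 15.2 and 15.7 CPM, between GTS1 (27.3 and 26.9 CPM) and GTML3 (4.58 and 4.19 CPM). At the 1795 lower ones GTS2 had 28.7 and 29 CPM, between GTS1 (14 and 13.4 CPM) and GTML3 (45.8 and 46.7 CPM).

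Bulk RNA of 6 GTS and 8 GTML tumors, which are other samples of the series, was set beside the promoters. Over all 15708 genes tested 3.92% were higher and 1.96% lower. Of the 11424 genes with both values, 418 (3.66%) were higher in GTS tumors and 239 (2.09%) lower, by limma on deposited log2 CPM at an adjusted p under 0.05. Of the 2455 genes whose promoter was higher in GTS1, 101 (4.11%) were higher in GTS RNA and 52 (2.12%) lower. Of the 2960 whose promoter was lower, 51 (1.72%) were lower in RNA and 98 (3.31%) higher. These shares are near the background in both directions, and across genes the changes correlated at Pearson 0.08 and Spearman 0.07, where genes are not independent. Of 1538 genes with a promoter at least 2-fold higher, 80 (5.2%) were higher in RNA and 26 (1.69%) lower. Of 1500 with a promoter at least 2-fold lower, 21 (1.4%) were lower in RNA and 57 (3.8%) higher. The tumors carry 1 of 2 numbers in their column names, one with 6 GTML and 2 GTS tumors and the other with 2 GTML and 4 GTS tumors. With this number as a term 9 genes were called over all 15708 tested. Then 3 genes were higher among those whose promoter was called higher and 0 were lower among those whose promoter was called lower. Sox9 RNA had a median log2 CPM of 3.77 in GTS and 2.38 in GTML tumors and was not called (1.73, SE 0.562, adjusted p = 0.0778).

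The genes higher in both readouts with the largest RNA change were Klhdc7a, Cadps2, Col19a1, Rsad2, Ddo and Etv1. Cadps2, which primes dense-core vesicles, ranged from 6.65 to 9.68 with a median of 9.12 log2 CPM in GTS tumors and from 2.53 to 4.43 with a median of 3.29 in GTML tumors, so the tumors did not overlap (5.15, SE 0.474, adjusted p = 0.000374, and 0.00366 with the column number as a term). Its promoter read 12 and 13.9 CPM in GTS1 and 1.72 and 1.2 CPM in GTML3 (2.51). Col19a1, a non-fibrillar collagen, ranged from 3.7 to 5.8 against -0.16 to 2.15 log2 CPM (4.35, adjusted p = 0.000977, and 0.00935 with the column number). Etv1, an ETS factor, ranged from 2.71 to 7.83 against 0.41 to 3.0 log2 CPM, which overlap (3.41, adjusted p = 0.0295, and 0.0965 with the column number), and its promoter read 162 and 176 CPM against 70.9 and 62.8 CPM. The genes lower in both were Lamp5, St3gal1, Fgd1, Slitrk5, Gpc3 and Cyyr1. Gpc3, a glypican on the X chromosome, ranged from -2.11 to 3.14 log2 CPM in GTS and from 2.47 to 7.15 in GTML tumors (-3.22, adjusted p = 0.0362, and 0.11 with the column number), and its promoter read 18.8 and 17.7 CPM in GTS1 against 103 and 109 CPM in GTML3 (-2.47). Lamp5, a membrane protein of neurons, changed by -4.52 in RNA (adjusted p = 0.0139, and 0.0658 with the column number) and by -1.79 at its promoter. Among these 12 genes the promoter calls of Ddo, Rsad2, St3gal1 and Slitrk5 were lost when single libraries were left out: Slitrk5 without the first GTS1 library (adjusted p = 0.0559), Ddo without any library but the second GTS1 library (0.0905 to 0.263), Rsad2 without any but the first GTML3 library (0.0589 to 0.252), and St3gal1 without any one of the 4 (0.101 to 0.171).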

How the data were processed

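Groups came from sample titles. The ATAC values are CPM per region, which the authors deposited. The submitters' processing notes name MACS2, edgeR, Bowtie2 2.2 and Subread 1.5.2, and the builds mm9 and mm10, without roles. The coordinates are not those of GRCm38.p6: 7.23% of 13097 promoters matched by symbol lay within 10 kb of a gene end there, so they are printed as the table gives them. All CPM values were whole reads within 0.1 read (100%), which were tested with edgeR 4.0.16 as alternatives. The main test was limma 3.58.1 in R 4.3.3 (trend and robust) on log2(CPM + 1) over all 6 groups and 12 libraries, with no filter, and was tested on simulated data. 1 line naming no region was left out. Each region carries 2 flanking genes with distances in the table. The tumor RNA is log2 CPM with batch removed, as deposited by the authors. Of it, 15708 of 16078 genes with at least 0 log2 CPM in at least 6 tumors were tested.

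Regions and genes named are the 8 largest changes in each class and direction (both libraries apart, at least 20 reads in the higher group, 1 region for each gene, no predicted models), the 6 loci with the most calls in each direction, the driver genes, up to 4 called members of each of 32 gene lists with the largest promoter change, and the 6 largest RNA changes that share the promoter's direction. Other list members are named after their values were seen. The libraries and lists were chosen with earlier results of these data known. Floors are 3 reads over a group and cover counting error only. Same-numbered duplicates did not deviate together (correlations of -0.01 to 0.01 over 15 pairs of groups). Alternatives were pseudocounts, a CPM filter, scalings, the 4 libraries alone, a replicate block and each library left out. Leaving out the 10 highest regions and centring within chromosomes were chosen after seeing the data. One list member that this rule names is not reported here.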

Additional observations from a re-analysis of the deposited data

Results flagged for a closer look

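In the tumor RNA, 17 named genes were examined in both tumor groups, and in 4 of these 34 gene groups a tumor lay far from the rest, by the gap to the nearest tumor as a share of the group's range. Chance gives this in about 1 in 20 groups, and the 34 share the same tumors. For Rsad2 the lowest GTS tumor had 2.01 log2 CPM and the next 4.69 (share 0.666). For Ddo the lowest GTML tumor had -4.24 and the next 0.31 (0.766). For St3gal1 the lowest GTS tumor had -2.56 and the next 1.36 (0.671). For Fgd1 the lowest GTS tumor had -1.94 and the next 1.31 (0.694). The lowest St3gal1 and Fgd1 values came from the same tumor, titled GTS1. No label says whether this tumor is the ATAC source GTS1.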

How the results depend on the processing

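Of 151 called regions named, 124 kept their call and direction in every alternative in which they were tested, 27 lost the call in at least one, and 0 reversed. The CPM filter left 136 of the 153 named regions to test. Many regions were named for the size of their change, which favours keeping a call. The Mycn promoter region nearest to the start (34 bp), which was not called (0.23), read -0.01 to 0.47 with one library left out, the lowest without the second GTS1 library, and -0.04 with changes centred within each chromosome, and the cause was not tested. Leaving out one library gave 10474 to 11838 regions higher and 9326 to 10348 lower, 1921 to 2202 promoters higher and 2545 to 2622 lower, and 8529 to 9636 distal regions higher and 6781 to 7765 lower, with fewer samples in each fit. TMM in edgeR gave 18005 higher and 12731 lower. A mean of at least 5 CPM left fewer regions to test and gave 7524 distal regions higher. A change of at least 1 on the log2 scale kept 1795 promoters lower. With the replicate block 14755 regions were higher and 13344 lower. The numbers are not said to pair the libraries, and same-numbered duplicates did not deviate together. In RNA, the column number as a term left 3 genes higher among promoters higher and 0 lower among promoters lower, and median centring of the tumor libraries 63 and 24. Promoters changed by at least 1 gave 80 higher and 21 lower, where fewer genes enter. At the GTML3 depth a single read is worth 0.5721 to 0.5986 CPM, which limits the precision at regions of a few reads.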
